A study of Mus musculus with 6 samples.

Results

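The genes described are those of 3 mouse protein families that cut the extracellular matrix or hold that cutting in check: the matrix metalloproteinases (Mmp), the secreted ADAMTS proteases (a disintegrin and metalloproteinase with thrombospondin motifs) and the tissue inhibitors of metalloproteinases (Timp). They were taken by symbol, as every gene named Mmp, Adamts or Timp followed by its number, which gave 46 of the 39179 genes of the count table: 23 Mmp, 19 Adamts and 4 Timp genes. The measurements were read counts per gene from RNA sequencing of 6 primary mouse osteosarcomas. The study compared 3 CD44+/+ tumors, numbered No244, No316 and No368, with 3 CD44-/- tumors, numbered No203, No279 and No364, to find genes whose level differed in the absence of CD44, the cell surface receptor for hyaluronan. All 6 tumors, the CD44+/+ ones included, came from mice of a C57BL/6 x 129/Sv x FVB background that carried the Nf2Δ2 allele of the tumor suppressor gene Nf2 beside a wild-type copy. The Cd44 genotype was that of the mouse, so tumor cells and host cells in a sample shared it. No age was given, and the extraction note of the labels spoke of cell lines where the labels themselves named the tissue osteosarcoma. Nothing in the labels said more of how the tumors were sampled, so the p-values below measure the spread between these tumors only.

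Matrix metalloproteinases are zinc enzymes made as inactive proenzymes, either secreted or anchored in the plasma membrane, and between them they cut collagens, gelatin, elastin and proteoglycans. ADAMTS proteases are secreted, bind the matrix, and cut proteoglycans such as aggrecan and versican, trim procollagens or act on microfibrils, while TIMPs bind the active site of metalloproteinases and block it. In bone, Mmp9 is known as an enzyme of osteoclasts and Mmp13 and Mmp14 as enzymes of osteoblasts and hypertrophic cartilage, and CD44 is known both to hold MMP9 at the cell surface and to be cut itself by MMP14.

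The tumors differed from one another in ways that bear on every value that follows. The 6 libraries held 18076388 to 26954142 counted reads, so that 3 reads, taken as the smallest count read as signal, stood for 0.0990 to 0.252 CPM, a limit that covers counting error only. CPM are counts divided by library sizes scaled by TMM, the trimmed mean of M-values, so that tumors can be compared. No316 and No368 differed by less than sampling noise in 87.2% of genes, against 15.9% to 23.9% in the other pairs of tumors, and in 29 of the 34 members with enough reads, against 1 to 5 members in other pairs, so they were counted as 1 sample in each mean (n = 2 for CD44+/+). Cd44 itself read 137.3, 243.6 and 240.3 CPM in the CD44+/+ group and 19.2, 15.8 and 61.8 CPM in the CD44-/- group, lower in each but not at 0. The tissue label was checked against osteoblast markers: Sp7, a transcription factor of osteoblasts, stood between 192 and 199 CPM with CD44 present and at 333 CPM in No203, but at 3.96 CPM in No279 and 0.314 CPM in No364. Of the 10 osteoblast markers, Alpl, Ibsp, Bglap, Bglap2 and Dmp1 were likewise lowest in these 2 tumors, but Col1a1 (11990 CPM), Runx2 (68.3 CPM) and Phex (15.95 CPM) were present in No279 at levels nearer the other tumors. No364 held 129500 CPM of 10 summed hepatocyte markers, against at most 159.9 CPM elsewhere, and No244 held 18170 CPM of 6 summed skeletal muscle markers and 55.2% mitochondrial reads. Xist was at 859 to 1241 CPM in the CD44+/+ tumors and No203 and under 1 CPM in No279 and No364, where 4 Y-linked transcripts were counted at 3.70 CPM or more; of these only Eif2s3y was also counted above the detection limit elsewhere, at 3.28 CPM in No244. The sex of the animal and the genotype partly cannot be told apart. These are bulk samples, in which fewer cells of a type and less RNA per cell cannot be told apart.

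Of the 46 genes, 35 had enough reads to be tested for a genotype difference: 17 Mmp, 15 Adamts and 3 Timp genes. Expressed as CPM per kilobase of exon, so that genes can be set side by side, the highest median levels over the 6 tumors were those of Mmp13 (371 CPM per kb), Mmp9 (331), Timp1 (307), Mmp2 (192), Timp2 (106) and Mmp14 (60.8), followed by Mmp23 (27.2), Adamts10 (22.96), Adamts2 (18.2) and Timp3 (13.4). Neighbours in this order exchanged places from tumor to tumor, and the spread of the first 6 genes over tumors overlapped throughout: Mmp13 ran from 49.0 to 832 CPM per kb, Mmp9 from 32.4 to 1093 and Timp1 from 35.8 to 453.5. The highest ADAMTS level in any tumor was 33.5 CPM per kb, of Adamts10 in No316, where Mmp9 was at 32.4. Summed by family, the Adamts genes ran from 14.8 to 110.3 CPM per kb over the tumors, the Timp genes from 64.6 to 563 and the Mmp genes from 202 to 2159.

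**Figure D1:**
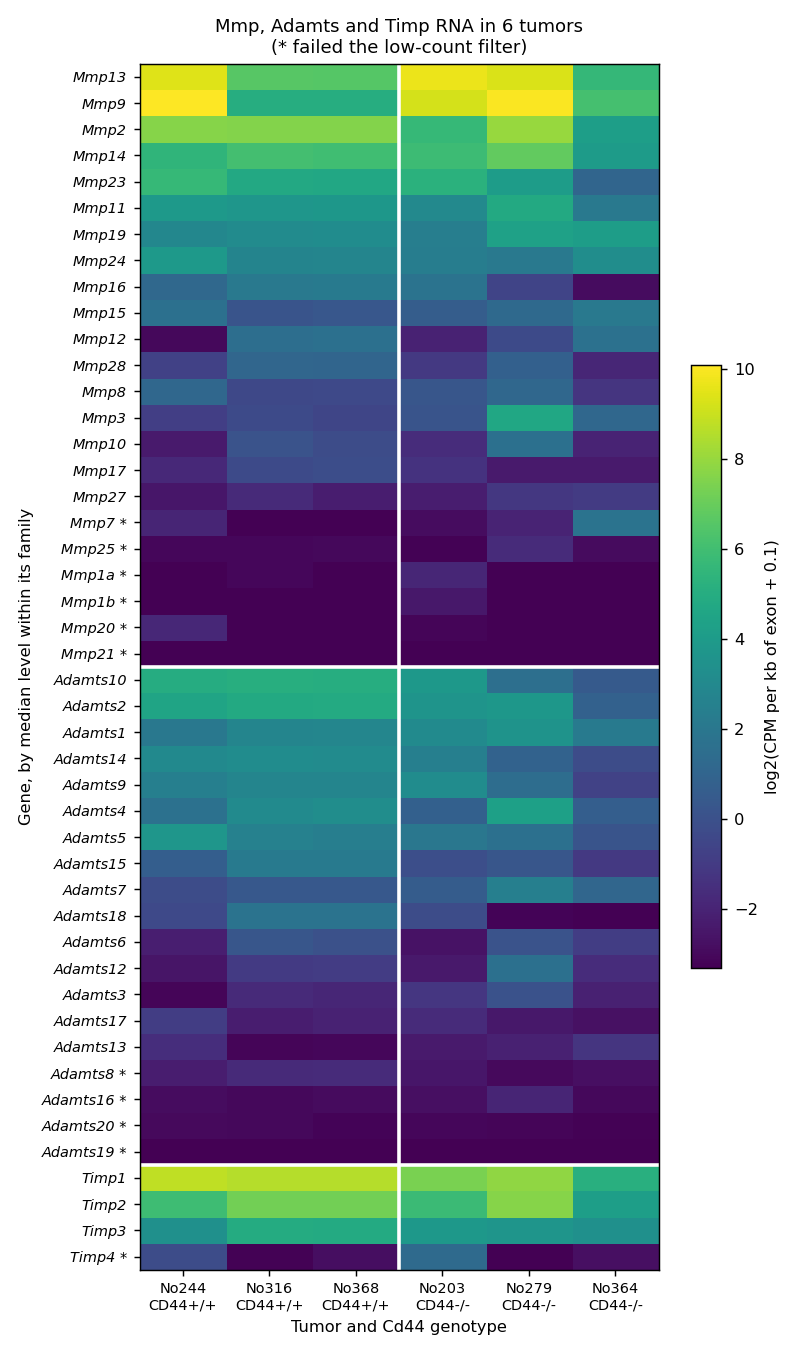
Heat map of all 46 Mmp, Adamts and Timp genes (rows, by family and median level, a star marking those that failed the filter) in the 6 tumors (columns, by genotype), coloured by log2 of CPM per kb of exon plus 0.1. Mmp13, Mmp9 and Timp1 lead with medians of 371, 331 and 307 CPM per kb, and No364 is the darkest column for most Adamts and Timp genes.

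The 11 members that did not pass the filter on low counts were low in most or all tumors. Adamts19 and Mmp21 had 0 reads in every tumor, which allows up to 0.252 CPM in No244, the library with the highest limit. The highest count in any tumor was 3 for Mmp1b, 6 for Adamts20, 7 for Mmp20, the tooth enamel protease, 9 for Mmp1a, annotated as a polymorphic pseudogene, 27 for Adamts8, 33 for Adamts16 and 35 for Mmp25. Mmp7, the matrilysin of epithelia, had 68 reads in No364 and at most 5 elsewhere. No364 also held 963 and 959 CPM of Krt8 and Krt18, keratins that hepatocytes also make. Krt19 and Epcam, markers of other epithelia, were at 2.04 and 7.54 CPM in No364, and Cdh1, a further epithelial marker, at 37.89 CPM. Each of these markers was higher in No364 than in any other tumor. The part of hepatocytes or of other epithelial cells in the Mmp7 value was not tested. Timp4 was counted 354 times in No203, 54 times in No244 and at most 6 times elsewhere.

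No member differed between genotypes at the adjusted threshold. The quasi-likelihood test of edgeR called 0 of the 16839 genes tested (0%) at an adjusted p under 0.05, and the adjusted p of the 35 members ran from 0.452 to 0.981. At an unadjusted p under 0.05, 6 of the 35 members were listed, 17.1% against a background of 10.7% of all genes tested: 2 with higher values in CD44-/- tumors (Mmp3 and Adamts7) and 4 with lower values (Adamts5, Adamts10, Adamts14 and Adamts15). The standard errors and p-values given for each gene come from this fit, in which No316 and No368 enter as 2 libraries. With the pair summed into 1 sample the number was 3 (background 4.26%), namely Mmp3, Adamts5 and Adamts15, while the unadjusted p was 0.0571 for Adamts10, 0.0841 for Adamts14 and 0.0995 for Adamts7, and without No364 it was 6 (background 8.82%). The Wald test of DESeq2 called 419 genes (1.66% of its genes), among them 1 member, Mmp3, and gave no adjusted p for 9 members. Counted by whether the 3 CD44-/- tumors all lay above or all below the 3 CD44+/+ tumors, 8 of 35 members did not overlap between genotypes (22.9%, against 19.1% of all genes): 2 were higher in CD44-/- tumors (background 9.49%) and 6 were lower (background 9.57%). Taken with No316 and No368 as 1 sample, 8 of 36 members did not overlap, against 20.6% of genes. This share of members was near the background.

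By family, the non-overlapping members were 1 of 17 Mmp genes (5.88%), 6 of 15 Adamts genes (40%) and 1 of 3 Timp genes, beside 19.1% of all genes. The Adamts count rested on 15 genes and was not tested against that share. The median log2 fold change, CD44-/- over CD44+/+, was 0.07 for the Mmp genes, -0.63 for the Adamts genes and -0.93 for the Timp genes, against 0.11 for all genes tested. Over all 35 members it was -0.53, and it was -0.11 without No364, against 0.04 for all genes. No364, the tumor with hepatocyte transcripts, was the lowest of the 6 tumors in 20 of 35 members (57.1%), where 24.6% of all genes had their lowest value in it, and this included 9 of 15 Adamts genes and all 3 tested Timp genes. Leaving out No244, No203, No279 or No364, which leaves fewer values to overlap, raised the share without overlap in members and in all genes. The number of members was 17 without No244 (47.2%, against 39.7% of all genes) and 17 without No203 (47.2% against 37.8%). It was 14 without No279 (37.8% against 29.3%) and 12 without No364 (32.4% against 28.7%).

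**Figure D2:**
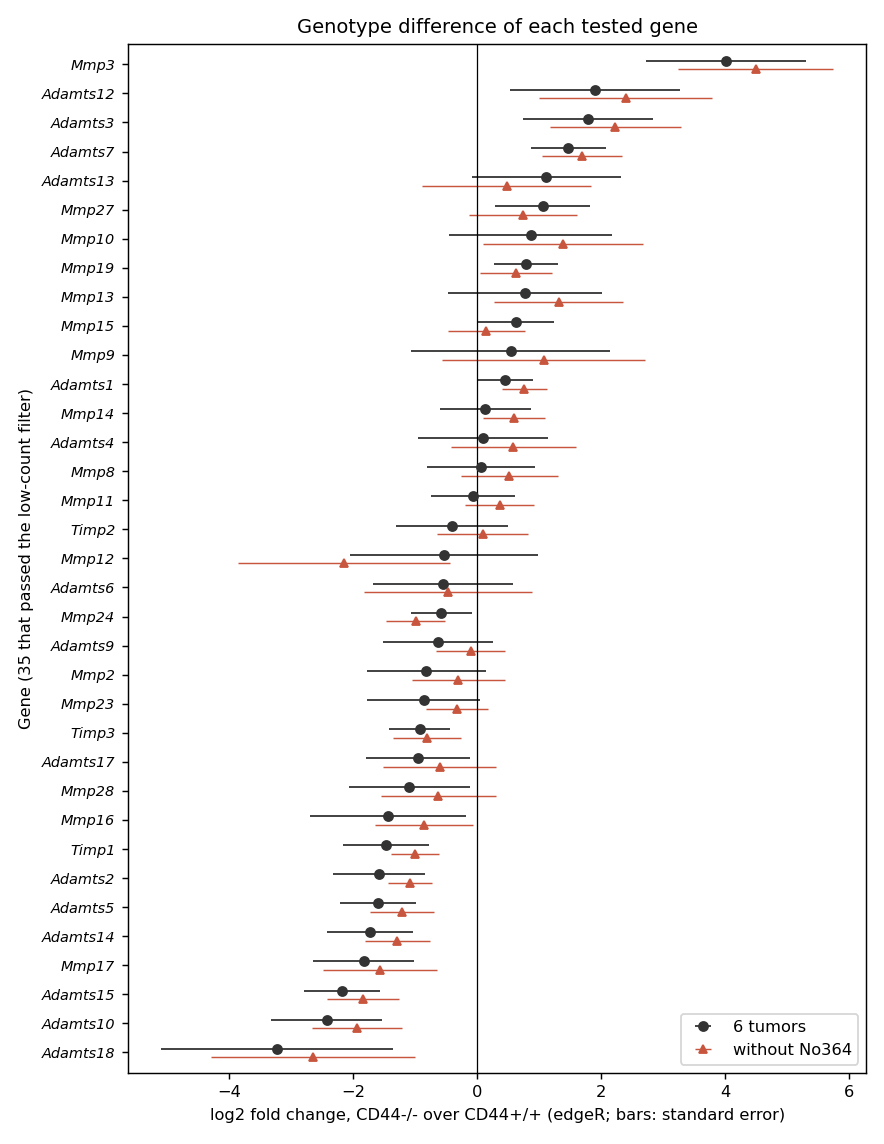
Log2 fold change, CD44-/- over CD44+/+, with its standard error, of the 35 tested members from the edgeR fits to all genes, for all 6 tumors (circles) and without No364 (triangles), ordered by value. None passes the adjusted threshold, Mmp3 has the largest positive value, 4.02, and Adamts18 the largest negative one, -3.22.

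The collagenases and gelatinases carried most of the matrix metalloproteinase transcripts and separated the tumors without regard to genotype. Mmp13, the main collagenase of the mouse, was at 1883 CPM in No244, 263 in No316 and 250.2 in No368 of the CD44+/+ group, and at 2225 in No203, 1721 in No279 and 131 in No364 of the CD44-/- group. It was thus high in 3 tumors of both genotypes and low in the other 3, and the groups overlapped. The group means were 1070 ± 1150 CPM (SD, n = 2) and 1359 ± 1093 CPM (SD, n = 3), and the log2 fold change was 0.77 with a standard error of 1.24 (edgeR adjusted p = 0.826), which was 2.40 without No244 and 0.19 without No203. Mmp9 (chr2:164940780-164955850), a gelatinase, was high in the same 3 tumors, with 3870, 114.5 and 118 CPM across No244, No316 and No368, and 2095, 3628 and 249.6 CPM in No203, No279 and No364. The genotypes overlapped throughout, with a log2 fold change of 0.54 ± 1.60 (SE, edgeR adjusted p = 0.911), which was 4.09 without No244 and -0.21 without No279. Summed osteoclast markers, 8 genes that include Acp5 and Ctsk, were high in the same 3 tumors: 9324, 686 and 680.1 CPM in the CD44+/+ tumors and 9772, 6184 and 653 CPM in the CD44-/- group. Their part in the Mmp9 and Mmp13 values was not tested.

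**Figure D3:**
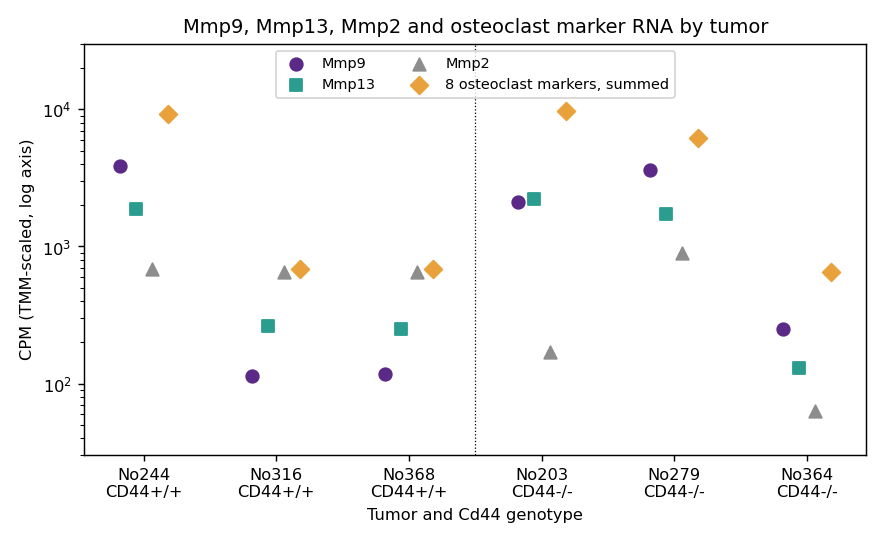
Mmp9, Mmp13, Mmp2 and 8 summed osteoclast markers in each tumor (CPM, log axis), CD44+/+ tumors left and CD44-/- tumors right of the dotted line. The markers, Mmp9 and Mmp13 are high in No244, No203 and No279, at 6184 to 9772 CPM for the markers, and low in the other 3 tumors, at 653 to 686 CPM, while Mmp2 takes another order.

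Mmp2, the other gelatinase and a product of mesenchymal cells, did not follow Mmp9. Its values were 679.9, 646 and 651 CPM across No244, No316 and No368, and 169, 892 and 62.6 CPM in No203, No279 and No364. The CD44+/+ tumors were close together while the CD44-/- tumors lay on either side of them, with the highest value in No279. There 6 summed fibroblast markers were at 3753 CPM, against at most 885 CPM in other tumors. Of these markers Pi16 went the other way, at 2.64 CPM in No279 and 3.86 CPM or more in the CD44+/+ tumors, and the others were highest in No279. The part of fibroblasts in the Mmp2 values was not tested. Its log2 fold change was -0.82 ± 0.95 (SE, edgeR adjusted p = 0.753), which was -2.51 without No279, -0.31 without No364 and -1.69 with limma-voom. Mmp9 exceeded Mmp2 per kilobase 5.42 times in No244, 11.8 times in No203, 3.87 times in No279 and 3.80 times in No364, but stood at 0.169 and 0.173 of it in No316 and No368. Mmp8, the neutrophil collagenase, was low, between 0.785 CPM in No364 and 5.25 CPM in No279, and overlapped between genotypes. Mmp13, Mmp9, Mmp14 and Mmp2 together made up 75.0% to 96% of all Mmp CPM in a tumor.

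Mmp3, or stromelysin-1, a broad protease that also activates other proenzymes, was the tested member with the largest fold change in edgeR. It was at 0.840, 1.25 and 1.09 CPM across No244, No316 and No368, and at 1.86, 46.3 and 3.82 CPM in No203, No279 and No364. The groups did not overlap, but No203 lay close to the CD44+/+ tumors at 149% of the nearest one, and the size of the difference rested on No279. The fitted log2 fold change was 4.02 ± 1.29 (SE, edgeR unadjusted p = 0.0182, adjusted p = 0.452), and leaving out No279 brought it to 1.41. DESeq2 gave an adjusted p of 0.0343 for the same 6 tumors. With limma-voom the log2 fold change of Mmp3 was 2.82, smaller in size than that of Adamts18, -6.26. Mmp10, or stromelysin-2, was also highest in No279, at 5.22 CPM, with overlapping groups. Elsewhere it ran from 0.168 CPM in No244, under the detection limit, to 1.70 CPM. Mmp12, the macrophage elastase, ran from 0.168 CPM in No244, under the detection limit, to 22.7 CPM in No364. It was at 19.9 CPM or more in No316, No368 and No364, the tumors that were low in Mmp9 and Mmp13. Of the 8 macrophage markers, only C1qa and C1qb were highest in the same 3 tumors. C1qa was at 245, 253 and 86.04 CPM there, against 23.2 to 57.9 CPM in the others. Csf1r, Cd68 and Cd163 were higher in No279 than in any of the 3. Mrc1 was higher in No203 (35.8 CPM) than in No364 (26.4 CPM), and Adgre1 slightly higher in No279 (13.3 CPM) than in No364 (12.8 CPM). Marco was at 3.25 CPM in No364 but at most 0.0420 CPM in No316 and No368. The part of macrophages in the Mmp12 values was not tested.

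Mmp3, Mmp10, Mmp12, Mmp13 and Mmp8 belong to a run of 10 Mmp genes on chromosome 9 that spans 427 kb of GRCm38, from 7272514 to 7699585, in the order Mmp13, Mmp12, Mmp1b, Mmp3, Mmp1a, Mmp10, Mmp8, Mmp27, Mmp20 and Mmp7. Their promoters are shown because neighbours in this run were at very different levels in the same tumor: in No203, Mmp13 was at 832 CPM per kb and Mmp3 at 1.03. The bases just upstream of the transcript starts listed by RefSeq are printed 5′ to 3′ on the strand of the gene. Capitals mark TGAGTCA or its reverse complement, the letters bound by the AP-1 factors Fos and Jun and also described for genes that respond to the released intracellular domain of CD44, and in Mmp13 also AACCACA, the letters bound by Runx2; Mmp8 is shown as a neighbour that holds neither.
Mmp13 (GRCm38.p6, chr9:7272384-7272513, plus strand): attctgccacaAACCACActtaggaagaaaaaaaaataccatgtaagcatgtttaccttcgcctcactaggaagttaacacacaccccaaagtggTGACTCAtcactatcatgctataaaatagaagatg
Mmp12, start 2 (GRCm38.p6, chr9:7347244-7347373, plus strand): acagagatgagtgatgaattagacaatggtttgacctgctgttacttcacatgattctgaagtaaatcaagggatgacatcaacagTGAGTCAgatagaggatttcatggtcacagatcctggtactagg
Mmp3 (GRCm38.p6, chr9:7445692-7445821, plus strand): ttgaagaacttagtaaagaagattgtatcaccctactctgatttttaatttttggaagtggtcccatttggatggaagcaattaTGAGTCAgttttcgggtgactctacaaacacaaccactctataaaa
Mmp1a (GRCm38.p6, chr9:7464011-7464140, plus strand): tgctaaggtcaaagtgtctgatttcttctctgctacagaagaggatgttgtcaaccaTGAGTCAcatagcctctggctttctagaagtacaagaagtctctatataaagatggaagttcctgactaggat
Mmp10 (GRCm38.p6, chr9:7502212-7502341, plus strand): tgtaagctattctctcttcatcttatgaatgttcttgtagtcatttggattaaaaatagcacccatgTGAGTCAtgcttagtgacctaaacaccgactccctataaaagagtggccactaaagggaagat
Mmp7, start 1 (GRCm38.p6, chr9:7691960-7692089, plus strand): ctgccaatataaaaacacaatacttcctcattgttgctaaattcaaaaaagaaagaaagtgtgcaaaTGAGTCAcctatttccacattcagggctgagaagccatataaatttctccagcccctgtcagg
Mmp8 (GRCm38.p6, chr9:7558299-7558428, plus strand): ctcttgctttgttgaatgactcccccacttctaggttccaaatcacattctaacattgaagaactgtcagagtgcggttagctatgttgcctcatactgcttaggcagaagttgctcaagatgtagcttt

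The TGAGTCA letters, searched on both strands from 250 bases before to 50 bases after each start, were in 7 of the 12 promoters listed for the cluster (58.3%), in 0 of the 23 promoters of members elsewhere, and in 5.20% of the 32851 mouse promoters listed. AACCACA was in 3 cluster promoters (25%), in 0 of the 23 others and in 5.27% of all promoters. In Mmp13 the TGAGTCA match lay at -35 and the AACCACA match at -119 from the start, and the TGAGTCA match lay at -46 in Mmp3, -63 in Mmp10, -73 in Mmp1a and -44 before the second start of Mmp12. The letters CCTGCG, described as a second sequence for that domain of CD44 (CIRE), were in 0 of the 12 cluster promoters, in 7 of the 23 other member promoters (30.4%) and in 17.3% of all promoters. Matches of different letters did not overlap. Promoters with the same letters belonged to genes at opposite ends of the range: Mmp13, at a median of 371 CPM per kb, and Mmp1a, at a median of 0, both hold TGAGTCA.

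**Figure D4:**
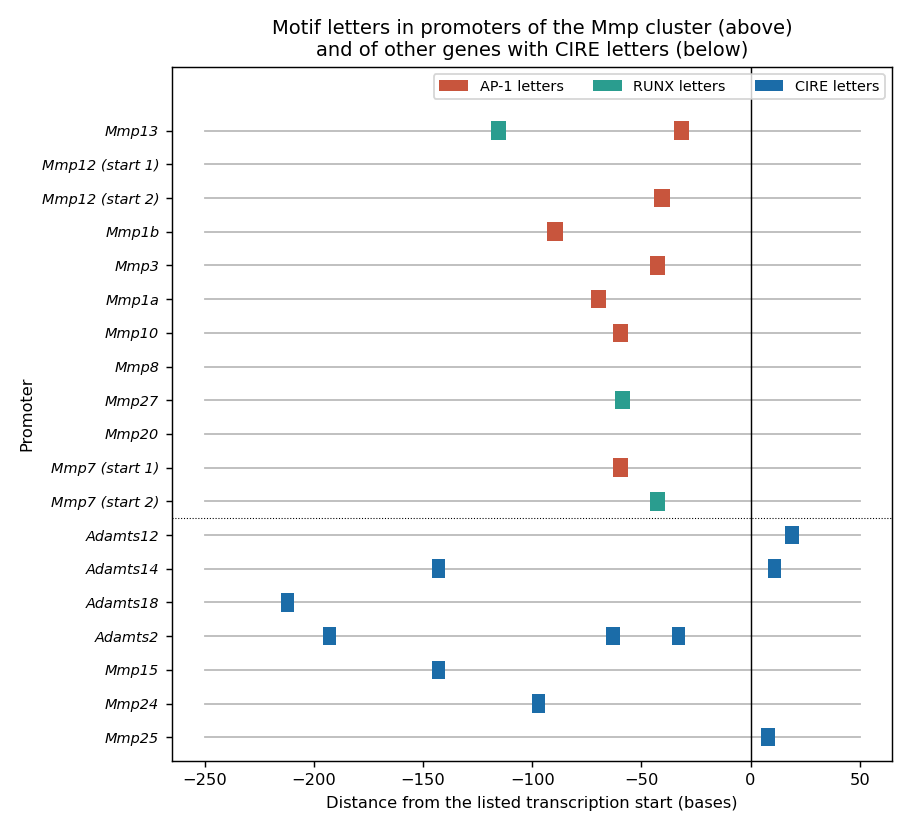
Places of the TGAGTCA (AP-1), Runx2 (RUNX) and CIRE letters in the 12 promoters of the chromosome 9 cluster (above the dotted line) and in the 7 other member promoters with CIRE letters (below), drawn as distance in bases from the transcript start. AP-1 letters, which are also described for genes that respond to the released intracellular domain of CD44, lie in 7 of the 12 cluster promoters, all upstream of the start. CIRE letters lie in none of the 12.

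Mmp14, the membrane-type enzyme that activates proMMP2 and sheds CD44, had the highest median level per kilobase of the membrane-anchored members. In No244, Mmp23 was higher per kilobase, at 50.1 against 44.3 for Mmp14. The Mmp14 values were 264, 408 and 378 CPM across No244, No316 and No368, and 347, 707.5 and 96.8 CPM in No203, No279 and No364. The genotypes overlapped, with means of 328.5 ± 91.5 (SD, n = 2) and 384 ± 307 CPM (SD, n = 3) and a log2 fold change of 0.13 ± 0.73 (SE, edgeR adjusted p = 0.955). Mmp23, a type II membrane protein that is released by furin, was at 117, 64.8 and 62.3 CPM in the CD44+/+ group and at 89.7, 40.4 and 4.71 CPM in No203, No279 and No364. Here too the groups overlapped, and No364 was lowest. Mmp17, which is anchored by glycosylphosphatidylinositol, was at 1.26, 4.73 and 5.25 CPM in the CD44+/+ group and 1.903, 0.627 and 0.628 CPM in the CD44-/- group. No203 exceeded No244, so the groups overlapped, and the log2 fold change was -1.83 ± 0.81 (SE, edgeR unadjusted p = 0.0603, adjusted p = 0.463).

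The other tested Mmp genes overlapped between genotypes. Of the transmembrane group, Mmp15 ran from 5.60 CPM in No316 to 22.5 CPM in No364, Mmp16 from 0.314 CPM in No364 to 38.2 CPM in No368, and Mmp24 from 19.5 CPM in No279 to 68.5 CPM in No244. Mmp16 was low in both tumors with little Sp7, at 4.89 CPM in No279 beside the value of No364, and at 19.4 CPM or more in the other 4. Mmp11 and Mmp28, secreted enzymes activated by furin, ran from 11.8 to 77.5 CPM and from 0.680 to 8.03 CPM, with No364 lowest in both. Mmp19 ran from 18.7 CPM in No203 to 72.5 CPM in No279. Mmp27 stayed between 0.168 CPM in No244, under the detection limit, and 0.890 CPM. The exons of Mmp11, Mmp12, Mmp19, Mmp24 and Mmp28 overlap exons of a gene on the other strand, and as the strand setting of the counting was not given, reads of the 2 genes could not be told apart.

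Among the ADAMTS proteases, 5 of the 15 tested genes were lower in every CD44-/- tumor than in any CD44+/+ tumor, as were 9.57% of all genes. Adamts10 (GRCm38, chr17:33524204-33553782), a protease of fibrillin microfibrils, was at 263, 276 and 268 CPM across No244, No316 and No368, and at 116, 23.5 and 10.6 CPM in No203, No279 and No364. The CD44+/+ tumors were nearly alike, at 267.6 ± 6.18 CPM (SD, n = 2), and the CD44-/- tumors were spread over more than a factor of 10, at 49.98 ± 57.4 CPM (SD, n = 3). On the log2 scale the fold change was -2.43 ± 0.89 (SE, edgeR unadjusted p = 0.0306, adjusted p = 0.452), and it was -1.94 without No364 and -4.01 without No203. The tumors with the lowest Adamts10 were those with little Sp7 and Xist, whose part in the value was not tested. Of the other genes of this group, Adamts6 ran from 0.436 CPM in No203 to 8.55 CPM in No316 and Adamts17 from 0.419 CPM in No364 to 3.36 CPM in No244, and both overlapped between genotypes.

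Adamts15 (chr9:30899155-30922452), a protease of aggrecan and versican, had the smallest p-value of the members. It was at 15.6, 45.9 and 46.3 CPM across No244, No316 and No368, and at 8.68, 11.4 and 3.82 CPM in No203, No279 and No364. The gap between the groups was narrow, from No279 to No244, and No316 and No368 stood well above both. Its log2 fold change was -2.17 ± 0.61 (SE, edgeR unadjusted p = 0.00991, adjusted p = 0.452), and over single tumors left out it stayed between -2.54 and -1.84. It was the only tested member of 35 whose widest range within a genotype did not exceed the fitted log2 difference between genotypes. How many of all genes share this was not computed. Adamts5 (chr16:85856173-85901828), the main aggrecanase of mouse cartilage, was at 140.5, 62.0 and 55.8 CPM in the CD44+/+ group and at 41.3, 32.5 and 11.2 CPM in the CD44-/- group. Its CD44+/+ values were set apart by No244, its groups were separated by No203 at 74.1% of No368, and its log2 fold change was -1.60 ± 0.61 (SE, edgeR unadjusted p = 0.036, adjusted p = 0.452), which was -1.06 without No244.

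The other tested aggrecanases and proteoglycanases overlapped. Adamts4, the second aggrecanase, ran from 7.27 CPM in No364 to 93.3 CPM in No279. Adamts1 ran from 21.8 CPM in No244 to 61.9 CPM in No279, and Adamts9, which overlaps genes on the other strand in its exons, from 7.96 CPM in No364 to 136 CPM in No203. Adamts8 (chr9:30942562-30963838), which lies next to Adamts15 among the members on chromosome 9, was too low to be tested, yet its highest CD44-/- value, 0.357 CPM in No203, lay below its lowest CD44+/+ value, 0.504 CPM in No244. These values rested on 9 and 6 reads, too few to tell the tumors apart, and its exons overlap a gene on the other strand. Aggrecan itself, Acan, a substrate of these enzymes, was at 0.168, 1.36 and 0.882 CPM in the CD44+/+ group. It was at 10.1, 153 and 10.3 CPM in No203, No279 and No364 (log2 fold change 6.11 ± 1.48, SE, edgeR unadjusted p = 0.0048, adjusted p = 0.452). Acan was highest in No279, and DESeq2 gave it no adjusted p. Versican, Vcan, was at 9.16, 147 and 146.9 CPM across No244, No316 and No368. In No203, No279 and No364 Vcan was at 12.93, 129.1 and 11.98 CPM, so its groups overlapped. The log2 fold change of Vcan was -0.98 ± 1.26 (SE, edgeR adjusted p = 0.778). Whether substrate levels went with those of the enzymes was not tested.

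The procollagen N-proteinases remove the amino-terminal propeptides of fibrillar collagens, and 2 of the 3 were lower in each CD44-/- tumor, where 9.57% of all genes were. Adamts2 (chr11:50602084-50807573) was at 214, 269 and 277 CPM across No244, No316 and No368, and at 112, 125.5 and 15.96 CPM in No203, No279 and No364. No203 and No279 were near each other, and No364 was far below them. The fitted log2 fold change was -1.58 ± 0.74 (SE, edgeR unadjusted p = 0.0726, adjusted p = 0.481), and -1.09 without No364. Adamts14 (chr10:61197112-61273438) was at 42.5, 47.7 and 45.8 CPM in the CD44+/+ group and at 27.9, 9.21 and 3.98 CPM in the CD44-/- group. It shared with Adamts10 the narrow CD44+/+ group and the order No203, No279, No364, with a log2 fold change of -1.73 ± 0.69 (SE, edgeR unadjusted p = 0.0428, adjusted p = 0.458), which was -2.81 without No203. Adamts3 went the other way in value, from 0.0840 CPM in No244, under the detection limit, to 5.02 CPM in No279, with overlapping groups. The promoter of Adamts2 is shown because it holds the CCTGCG letters 3 times, at -196, -66 and -36, more often than any other listed member promoter. How many of all promoters hold them 3 times was not computed, and their part in the Adamts2 values was not tested. Mmp15 and Adamts12, whose genotypes overlapped, hold the letters too. Capitals mark the letters in Adamts2, the first as the reverse complement.
Adamts2 (GRCm38.p6, chr11:50601835-50602084, plus strand): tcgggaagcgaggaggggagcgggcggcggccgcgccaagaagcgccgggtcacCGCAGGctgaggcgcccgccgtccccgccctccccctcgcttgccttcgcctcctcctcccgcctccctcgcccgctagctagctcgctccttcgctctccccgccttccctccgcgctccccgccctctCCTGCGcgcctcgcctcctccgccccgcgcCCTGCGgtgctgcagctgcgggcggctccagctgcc

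Adamts7 (chr9:90163069-90208071), which cuts cartilage oligomeric matrix protein, was the ADAMTS gene with higher values in every CD44-/- tumor. It was at 4.87, 7.44 and 7.64 CPM across No244, No316 and No368, and at 8.64, 34.1 and 12.7 CPM in No203, No279 and No364. No203 exceeded the nearest CD44+/+ tumor only slightly, at 113% of it. On the log2 scale the fold change was 1.47 ± 0.61 (SE, edgeR unadjusted p = 0.0482, adjusted p = 0.46), it was 0.68 without No279, and the exons of the gene overlap those of Tbc1d2b on the other strand. Adamts12, the related enzyme, was highest in No279 at 32.7 CPM and between 0.756 and 4.53 CPM elsewhere. Adamts13, which cuts von Willebrand factor and is made in liver, was low in every tumor and highest in No364, at 1.57 CPM, where the hepatocyte markers stood; their part in the value was not tested. Adamts18 was at 34.7 and 34.0 CPM in No316 and No368, at 6.89 CPM in No244 and 7.97 CPM in No203, and at or under the detection limit in No279 and No364, the tumors with little Sp7. Its groups overlapped through No203.

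**Figure D5:**
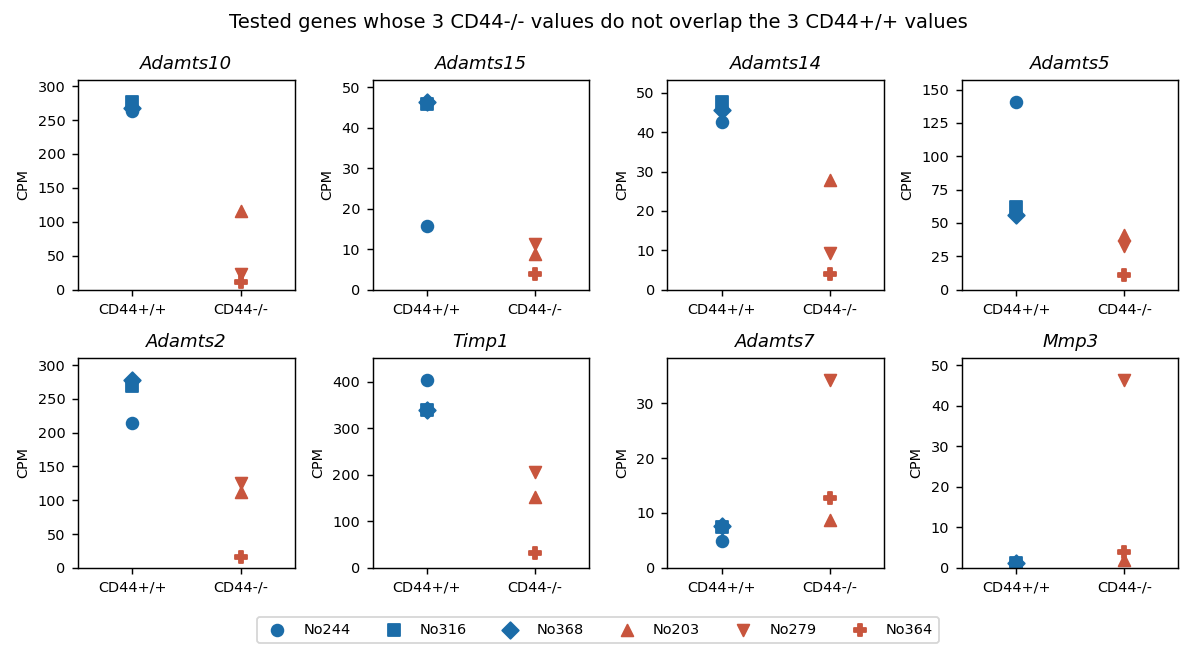
Level in each tumor (CPM, axis from 0 in each panel) of the 8 tested members whose genotypes did not overlap. Adamts2, Adamts5, Adamts10, Adamts14, Adamts15 and Timp1 lie lower in all 3 CD44-/- tumors, Adamts7 and Mmp3 higher, and No316 and No368 nearly coincide in each panel.

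Timp1 (chrX:20870166-20874735), the X-linked inhibitor with a broad range of MMP targets, was the TIMP at the highest level per kilobase in each of the 6 tumors. It was at 403, 339 and 339 CPM across No244, No316 and No368, and at 152, 206 and 31.8 CPM in No203, No279 and No364. All CD44-/- tumors lay below the CD44+/+ tumors, No279 nearest to them, with means of 371 ± 45.1 (SD, n = 2) and 130 ± 89.0 CPM (SD, n = 3). Its log2 fold change was -1.47 ± 0.69 (SE, edgeR unadjusted p = 0.0734, adjusted p = 0.483), and it was -1.004 without No364. Timp2, which takes part in the activation of proMMP2 by MMP14, was at 239.6, 584.5 and 588 CPM in the CD44+/+ group and at 218.5, 779 and 71.8 CPM in No203, No279 and No364. It overlapped between genotypes, as did Timp3, a matrix-bound inhibitor that also blocks ADAMTS4 and ADAMTS5. Timp3 was at 85.5, 247 and 243 CPM in the CD44+/+ group and at 114, 104 and 84.6 CPM in the CD44-/- group, with No244 beside the CD44-/- values and a log2 fold change of -0.93 ± 0.50 (SE, edgeR unadjusted p = 0.107, adjusted p = 0.514), and its exons overlap those of Syn3 on the other strand.

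Set against the proteases, the summed Mmp level per kilobase was 4.07 times the summed Timp level in No244, and 0.820 and 0.805 times in No316 and No368. In the CD44-/- tumors it was 6.57 times in No203, 4.86 times in No279 and 3.12 times in No364. The ratio was above 3 in all tumors but No316 and No368, which count as 1 sample, so the genotypes overlapped. Mmp13 per kilobase, the highest protease by median, was 1.55, 0.258 and 0.245 times Timp1 in No244, No316 and No368. In No203, No279 and No364 it was 4.87, 2.78 and 1.37 times Timp1, so the genotypes overlapped. Mmp9 per kilobase was 2.41 times Timp1 in No244, 3.47 times in No203, 4.43 times in No279 and 1.97 times in No364, but 0.0848 and 0.0872 times in No316 and No368. Mmp2 per kilobase stayed closer to Timp2, from 0.892 times in No203 to 3.28 times in No244.

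Values varied widely within a genotype. In 34 of the 35 tested members the widest range within a genotype exceeded the fitted difference between the genotypes on the log2 scale. This sets the extremes of a group against a difference of averages. Adamts10 was among the 34 although its genotypes did not overlap. Within the CD44-/- tumors, 23 of 35 members spanned more than a factor of 4, and 11 still did so when No364 was left out. The share over all genes was not computed for these counts, so they do not set the members apart from other genes. No279 was the tumor with the highest value in 13 members, No316 or No368 in 10, No244 in 6, No364 in 4 and No203 in 2.

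Other genes of matrix proteolysis were read from a list of 89 activators, inhibitors, receptors, ADAMTS-like proteins, ADAM sheddases, substrates and transcription factors, of which 88 were counted and 80 tested. The edgeR test called 0 of them at the adjusted threshold, with 9 higher and 3 lower in CD44-/- tumors at an unadjusted p under 0.05 (10.7% of all genes in either direction), and 7 did not overlap between genotypes (8.75%, against 19.1% of all genes). Of the 9 higher genes, 6 were high in No364 alone, the tumor with hepatocyte transcripts: Plg, F2, Tmprss6, Pzp, Lcn2 and Tfpi2. Plg, the precursor of plasmin, was at 2279 CPM there and at 0.924 to 3.01 CPM in the others, and without No364 the unadjusted edgeR p of these 6 genes ran from 0.226 to 0.938. The median log2 fold change of the list was -0.03. The smallest p-values belonged to Adamtsl5, Acan and Cd44. Cd44 was the gene deleted by design, so its place here, among the 3 lower genes and among the 7 without overlap was fixed in advance. Adamtsl5, an ADAMTS-like protein without protease activity that binds microfibrils, was at 28.7, 92.9 and 95.3 CPM across No244, No316 and No368, and at 6.38, 10.1 and 3.72 CPM in No203, No279 and No364. All CD44-/- tumors lay below the CD44+/+ tumors, with a log2 fold change of -3.42 ± 0.64 (SE, edgeR unadjusted p = 0.00116, adjusted p = 0.452).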

How the data were processed

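RNA was sequenced from 6 osteosarcomas, 3 per genotype, with a TruSeq stranded mRNA kit. The deposited table holds raw counts of reads per gene. According to the submitters' processing notes, bcl2fastq 1.8.4, HISAT2 2.0.2 and featureCounts of Subread 2.0.0 were used with GRCm38; the strand setting of the counting was not given in the sources used here. The deposited counts were not normalized by the authors.

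Counts were scaled by TMM to a common library size (CPM). CD44-/- and CD44+/+ tumors were compared across all genes that passed filterByExpr (minimum count 10, minimum total 15) with the quasi-likelihood F test of edgeR 4.0.16 in R 4.3.3, and p-values were adjusted by Benjamini-Hochberg (threshold 0.05). Standard errors were derived from the fold change and F. Levels per kilobase used the union of exons in GENCODE M21, and promoters came from RefSeq (GRCm38.p6), where 32 of the 46 members had a listed promoter. Values in every tumor are given for members whose genotypes did not overlap, the 10 highest per kilobase, the 10 of smallest p and Mmp3 and Adamts10; the others are given by range. Of the list of matrix proteolysis genes, the 3 of smallest p are given, with Vcan beside Acan. Vcan and the genes high in No364 were named after their values were seen. Members, gene lists and marker lists were chosen with earlier results of these data known. Alternatives were DESeq2 1.42.0, limma-voom (limma 3.58.1), other scalings and filters, No316 and No368 summed, and tumors left out. The scripts were tested on simulated data.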

Additional observations from a re-analysis of the deposited data

How the results depend on the processing

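The number of genes past the adjusted threshold was 0 in edgeR under each scaling, filter and choice of tumors tried, and 0 with limma-voom on all 6 tumors, with 639 to 3085 genes at an unadjusted p under 0.05, and 419 with the DESeq2 Wald test, where Mmp3 was the only member called; the cause was not tested. The number of members without overlap was 8, was 4 with library size alone as the scaling (12.5% of all genes then, against 19.1%), and ran from 8 to 17 with single tumors left out, which leaves fewer values to overlap. Of 516 recomputed log2 fold changes of members, 21 had the opposite sign to the value reported, all of them in members with an adjusted p above 0.6. With limma-voom, Adamts4 was at -0.76 and Mmp14 at -0.28. With No316 and No368 summed, Mmp8 was at -0.21, and with No364 also left out, Adamts13 was at -0.046, Mmp11 at 0.32, Mmp15 at -0.10 and Timp2 at 0.26. With library size alone, Mmp11 was at 0.083. With single tumors left out, the log2 fold change ran from -2.16 to 0.59 for Adamts4, -0.93 to 2.41 for Adamts12, -0.66 to 0.86 for Mmp8, -0.21 to 4.09 for Mmp9, -1.69 to 1.39 for Mmp10, -1.21 to 0.36 for Mmp11, -0.66 to 0.60 for Mmp14 and -1.70 to 0.09 for Timp2; the cause was not tested. No paired analysis was possible because the mouse numbers are not shared between the genotypes. Depth limits the members that failed the filter, which had at most 68 reads in any tumor, other than Timp4.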
